A study of Mus musculus with 8 samples.

Results

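The oligoadenylate synthetase genes Oas1a, Oas1b, Oas1g, Oas2, Oas3, Oasl1 and Oasl2 were followed in RAW264.7 cells, an established mouse macrophage line. The 7 genes were listed by name and were selected with their response on these same 8 arrays in view, so their levels and differences across treatments are a description: no p-value is given for them, and their counts past a threshold support nothing. They are 7 of 27343 genes on the array, and all 7 were among the 15455 genes that passed the filter on dim probes. Of 41174 probes, 9 report them, 2 each for Oas2 and Oas3 and 1 for each of the others, and all 9 were well above background on 8 of 8 arrays. The 4 treatments were untreated cells (control), all-trans retinoic acid (ATRA, the active form of vitamin A), interleukin 13 (IL-13, the type 2 cytokine that drives alternative, or M2, activation of macrophages) and IL-13 with ATRA, each for 12 h and for 24 h with 1 array per treatment and time. The labels call the control and the ATRA cultures unpolarized, the IL-13 cultures M2 macrophages and the cultures with both agents suppressed in M2 polarization. All groups shared the same line, serum-containing medium and duration of culture, and no interferon, virus or RNA is named in any label, so the levels are those without a stated antiviral stimulus. Doses are not given in the labels, and nothing in them says that the cultures were separate. With 1 array per treatment and time, errors measure how far the differences between treatments varied from 12 h to 24 h. Real change with time and technical spread cannot be told apart in them.

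Oligoadenylate synthetases are enzymes of the interferon response. On binding double-stranded RNA they join ATP into short 2-5A chains, a second messenger that leads to the cutting of viral and cellular RNA. Type I interferon induces the genes through ISGF3, a complex that holds STAT2 and IRF9 and binds interferon-stimulated response elements (ISRE) in their promoters. In the mouse the single OAS1 gene of humans is replaced by a cluster of Oas1 copies, while the OAS-like proteins Oasl1 and Oasl2 carry ubiquitin-like domains. OASL1 is best known for restraining the translation of Irf7, and OASL2 keeps synthetase activity.

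Levels are log2 of the processed fluorescence after every array was brought to the same 75th percentile, and a difference of 1 is a doubling. The percentile itself lay between 448 and 739 units of fluorescence, lowest for IL-13 at 12 h and highest for IL-13 at 24 h, and 54.1% to 61.4% of probes were well above background on an array. No probe was saturated, and 8 arrays limit the precision. The 4 arrays of 12 h lay on 1 slide and the 4 arrays of 24 h on the other, so a difference between times cannot be told apart from one between slides. Of 8 macrophage markers, 7 (among them Adgre1, Csf1r and Cd68) were well above background on all 8 arrays and Mertk on 3. Of the 7 markers on all arrays, Adgre1 rose with IL-13, by 1.06 ± 0.13 on the log2 scale (limma, adjusted p = 0.0392), and with both agents, by 0.83 ± 0.13 (0.0272), calls that held in 1 and 2 of 8 fits without 1 array, and it differed by 0.14 ± 0.13 with ATRA (0.704). The median of the 7 markers was -0.24 with IL-13, -0.04 with ATRA and -0.03 with both, and the part of Adgre1's shift in other results was not tested. Of epithelial, T cell and fibroblast markers, 0 of 4 epithelial genes were well above background on any array, while 2 of 4 T cell genes (Cd3e and Lck) and 1 of 4 fibroblast genes (Col1a2) were so on all 8. In bulk RNA, fewer cells that express a gene and less of its RNA per cell cannot be told apart.

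Oas1a, Oas1g and Oas3 carried an ISRE-like match in the promoter sequence at hand, and these windows are shown because they hold it. Whether the match had a part in the levels was not tested. The sequences are the 250 bases upstream of the annotated start from RefSeq on GRCm38.p6, read 5′ to 3′ on the gene's strand, with the ISRE-like match in capitals. Windows were found for 5 of the 7 genes (Oas1a, Oas1g, Oas3, Oasl1 and Oasl2), and none for Oas1b and Oas2 in the promoter set used here. The Oas1a window is chr5:120907526-120907775, that of Oas1g chr5:120887614-120887863 and that of Oas3 chr5:120777660-120777909, all on the minus strand.
Oas1a: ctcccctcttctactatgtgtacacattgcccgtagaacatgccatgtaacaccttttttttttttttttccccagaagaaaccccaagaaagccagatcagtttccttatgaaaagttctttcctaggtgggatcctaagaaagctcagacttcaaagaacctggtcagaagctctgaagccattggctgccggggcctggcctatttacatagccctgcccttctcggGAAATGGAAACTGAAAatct
Oas1g: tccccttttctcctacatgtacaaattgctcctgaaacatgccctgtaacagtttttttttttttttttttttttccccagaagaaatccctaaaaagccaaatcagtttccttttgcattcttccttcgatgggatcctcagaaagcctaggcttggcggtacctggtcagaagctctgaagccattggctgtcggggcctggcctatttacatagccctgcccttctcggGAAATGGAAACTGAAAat
Oas3: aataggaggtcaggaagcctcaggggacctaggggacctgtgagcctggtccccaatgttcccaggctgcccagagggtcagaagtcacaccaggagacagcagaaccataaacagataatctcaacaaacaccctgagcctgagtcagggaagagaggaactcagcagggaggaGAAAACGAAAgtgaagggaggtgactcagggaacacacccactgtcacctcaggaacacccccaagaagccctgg

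Motifs were searched on both strands of windows that run from 250 bases before to 50 bases after the start. The ISRE was taken as TTTC repeated after any 2 bases, and the interferon gamma-activated site (GAS) as TTCNNNGAA. The site bound by STAT6, the transcription factor of IL-13 signalling, was taken as TTC and GAA with any 4 bases between, and the retinoic acid response element (RARE) as AGGTCA repeated after any 5 bases. The ISRE letters occurred in 3 of the 5 family windows and in 3.44% of 32851 windows of the same length. They also occurred in windows of 9 of 17 other interferon-stimulated effectors and 3 of 6 other sensors of double-stranded RNA. Oas1c, an Oas1 copy outside the genes followed here, had 2 matches. Oas1a and Oas1g each had 2 matches that overlapped each other, at -20 to -11 and -14 to -5 in Oas1a and at -18 to -9 and -12 to -3 in Oas1g, whereas Oas3 had 1 at -75 to -66. STAT6-site letters occurred in Oas1a and Oas1g, 2 times each, against 6.95% of all windows, and in both genes the match nearer to the start overlapped the ISRE-like match. Oas1a also held the GAS letters, at -98 to -90, which occurred in 8.3% of all windows. The RARE letters were in 0 of 5 family windows and in 3 windows of all (0.00913%). Oasl1 and Oasl2 had none of the 4 motifs in this window, which says nothing of sites elsewhere or of other spellings. Aligned over the upstream bases, Oas1a and Oas1g were 82.8% identical, and the other 9 pairs were 45.7% to 49.8% identical.

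**Figure D1:**
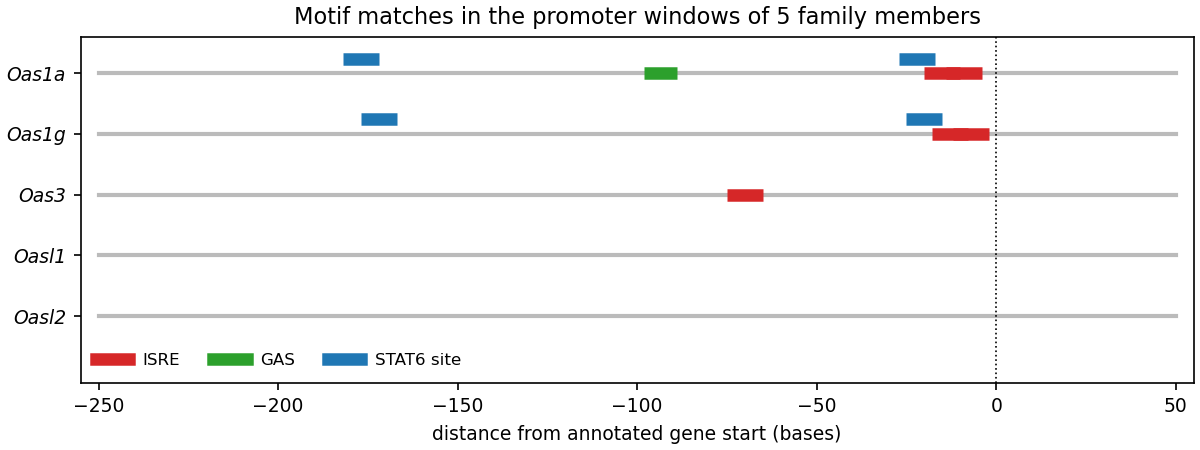
Motif matches in the RefSeq promoter windows of 5 family genes, plotted by distance in bases from the annotated gene start, with ISRE in red, GAS in green and the STAT6 site in blue. The ISRE matches of Oas1a and Oas1g sit within 20 bases of the start, that of Oas3 sits at -75 to -66, and Oasl1 and Oasl2 have none.

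Among the Oas1 copies, Oas1a encodes a catalytically active synthetase. Its probe, shown because the Oas1a values rest on it, lies at chr5:121348348-121348407 on the minus strand of mm9 and starts at base 1013 of the transcript.
Oas1a probe: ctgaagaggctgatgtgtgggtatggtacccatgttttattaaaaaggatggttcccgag
The log2 level of Oas1a was 12.86 in control cells, 13.14 with IL-13, 12.22 with ATRA and 12.26 with both at 12 h. At 24 h it was 13.43, 12.48, 11.95 and 11.67 in the same order. Every array with ATRA, alone or with IL-13, was below every array without it, while the control and IL-13 arrays overlapped. The difference from control over both times was -1.06 ± 0.31 with ATRA (standard error of limma's fit, as for all differences here, n = 2 arrays per treatment), -0.34 ± 0.31 with IL-13 and -1.18 ± 0.31 with both. With IL-13 alone the sign turned between the times, from 0.28 at 12 h to -0.96 at 24 h. Before scaling, the 12 h signal was lower with IL-13 (7507) than in control cells (7836), so the sign at 12 h rests on the scaling.

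Oas1g, a near copy of Oas1a, moved through the 8 arrays almost as Oas1a did, with r = 0.989 between them, the highest of the 21 pairs in the family. Its log2 level at 12 h was 5.34 in control cells, 5.49 with IL-13, 4.56 with ATRA and 4.83 with both. The 24 h levels were 5.79, 4.80, 4.29 and 4.0. The IL-13 array of 24 h lay below the ATRA-with-IL-13 array of 12 h, so the groups with and without ATRA overlapped here, though not within a time. The difference from control was -1.14 ± 0.32 with ATRA, -0.42 ± 0.32 with IL-13 and -1.15 ± 0.32 with both, and IL-13 again gave opposite signs, 0.15 at 12 h and -0.99 at 24 h. Here too the 12 h signal before scaling was lower with IL-13 (37.4) than in control cells (42.8). The array annotation places 19 of the 60 bases of the Oas1g probe on mm9, at chr5:121326151-121326169.

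Oas1b is the copy known as the flavivirus resistance gene of wild mice, and RefSeq lists it as a transcribed pseudogene in the C57BL/6J reference. Its log2 level at 12 h was 5.72 in control cells, 5.52 with IL-13, 4.72 with ATRA and 4.86 with both. After 24 h the levels were 5.86, 5.07, 4.75 and 4.23. All 4 arrays with ATRA were below all 4 arrays without it, and the IL-13 arrays were below both control arrays. The difference from control was -1.06 ± 0.22 with ATRA, close in size at 12 h (-1.0) and 24 h (-1.11), -0.49 ± 0.22 with IL-13 and -1.25 ± 0.22 with both. Its probe, of which 55 of 60 bases are placed at chr5:121271358-121271412 (mm9, plus strand), overlaps in sequence with a probe for the neighbouring copy Oas1h. The pair is shown because it bears on which copy the Oas1b value reads, with capitals for the bases that are identical in the overlap.
Oas1b probe: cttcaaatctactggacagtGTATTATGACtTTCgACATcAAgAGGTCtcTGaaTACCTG
Oas1h probe: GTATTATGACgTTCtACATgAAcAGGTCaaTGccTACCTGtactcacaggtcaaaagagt
Of 40 overlapping bases, 32 (80%) were identical, the highest share of any pair of probes for different Oas genes that overlap by at least 20 bases. The Oas1h probe had log2 levels of 0.29 to 1.41 and was above background on none of the 8 arrays. Cross-hybridisation among the Oas1 copies was not tested, and their values are uncertain to that extent.

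Of the 5 other Oas1 copies on the array, Oas1d and Oas1h were well above background on 0 of 8 arrays. Oas1f, at log2 levels of 12.46 to 14.32, had differences from control of -0.53 with IL-13, -1.09 with ATRA and -1.25 with both, and it had the same order of treatments as Oas1a at both times. Its adjusted p in limma was 0.355, 0.213 and 0.0822 respectively. Oas1c fell with both agents, by 0.68 ± 0.12 on the log2 scale (limma, adjusted p = 0.0345, lower at both times), a call that was lost without any 1 of the 8 arrays (adjusted p 0.0112 to 0.184 over all alternatives). With IL-13 alone Oas1c differed from control by -0.01 ± 0.12.

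Oas2 encodes the synthetase with 2 OAS units in tandem, and Oas3 the one with 3, which has the highest affinity for long double-stranded RNA. For Oas2 the brighter probe, at chr5:121180434-121180493 on mm9, gave the values first described. Its log2 level at 12 h was 11.27 in control cells, 10.34 with IL-13, 9.89 with ATRA and 9.13 with both. At 24 h it was 11.32, 9.79, 9.48 and 8.71. The 2 control arrays were the highest and the 2 arrays with both agents the lowest, without overlap, while the IL-13 and ATRA arrays overlapped. Oas2 was 2.34-fold lower than control with IL-13 (difference -1.22 ± 0.17), 3.04-fold lower with ATRA (-1.60 ± 0.17) and 5.19-fold lower with both (-2.38 ± 0.17). It was also lower with both agents than with either of them, by -1.15 ± 0.17 against IL-13 and by -0.77 ± 0.17 against ATRA, with almost the same size at 12 h and 24 h.

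The second Oas2 probe lies nearer to the start of the transcript, from base 2016 against base 3712, at chr5:121184997-121185056 on the minus strand of mm9, and is shown because both Oas2 probes were highest in control cells and lowest with both agents.
Oas2 second probe: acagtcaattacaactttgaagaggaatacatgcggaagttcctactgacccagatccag
It read 6.45, 5.23, 5.27 and 4.10 at 12 h, and 6.55, 4.98, 4.92 and 3.45 at 24 h, for control, IL-13, ATRA and both. Its differences from control were -1.40 ± 0.19 with IL-13, -1.40 ± 0.19 with ATRA and -2.73 ± 0.19 with both. The sum of the 2 single differences and the combined difference were thus closer on this probe, with a departure of 0.07 ± 0.27, than on the brighter one.

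Oas3 had the largest difference with IL-13 in the family on its brighter probe, though not on the mean of its probes (-1.46 against -1.74 for Oasl2). On the brighter probe, at chr5:121203598-121203657 on mm9, the log2 level at 12 h was 9.78 in control cells, 8.11 with IL-13, 8.32 with ATRA and 7.12 with both. At 24 h the values were 9.38, 6.84, 7.56 and 6.41. Both control arrays were above all others, and Oas3 was the 1 member on its brighter probe for which IL-13 lay below ATRA at both times. The difference from control was -2.10 ± 0.21 with IL-13 (4.30-fold lower), -1.64 ± 0.21 with ATRA (3.12-fold) and -2.82 ± 0.21 with both (7.04-fold). Adding IL-13 to ATRA gave -1.17 ± 0.21, and adding ATRA to IL-13 gave -0.71 ± 0.21.

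The 2 Oas3 probes disagreed in size. The second read 7.84, 7.52, 6.87 and 6.71 at 12 h, and 8.22, 6.90, 6.52 and 6.09 at 24 h, for control, IL-13, ATRA and both. All treated arrays were still below both control arrays, but IL-13 was now above ATRA at both times. The IL-13 difference was -0.82 ± 0.27 (-0.32 at 12 h and -1.32 at 24 h) in place of -2.10 ± 0.21, whereas the ATRA difference, -1.33 ± 0.27, was nearer to that of the brighter probe. IL-13 with ATRA differed from control by -1.63 ± 0.27.

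Oasl1 had the smallest combined difference of the family. Its log2 level at 12 h was 12.28 in control cells, 11.93 with IL-13, 11.40 with ATRA and 11.38 with both. By 24 h it was 12.29, 11.25, 11.13 and 11.01. The 2 control arrays were the highest and nearly equal, and at each time the order was control, IL-13, ATRA, both. The difference from control was -0.69 ± 0.18 with IL-13, -1.02 ± 0.18 with ATRA and -1.09 ± 0.18 with both, and IL-13 added to ATRA changed it by -0.07 ± 0.18. The probe lies at chr5:115387556-115387615 on mm9.

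Oasl2 had the largest combined difference. Its log2 level at 12 h was 9.02 in control cells, 7.86 with IL-13, 7.27 with ATRA and 6.49 with both. At 24 h it was 8.99, 6.66, 6.69 and 5.62. Control arrays were the highest and the arrays with both agents the lowest, while IL-13 and ATRA overlapped. Oasl2 was 3.35-fold lower than control with IL-13 (-1.74 ± 0.28), 4.07-fold lower with ATRA (-2.03 ± 0.28) and 7.73-fold lower with both (-2.95 ± 0.28). Against IL-13 the combined treatment gave -1.21 ± 0.28 and against ATRA -0.92 ± 0.28. The probe lies at chr5:115362168-115362227 on mm9, beside that of Oasl1 and away from the Oas1 to Oas3 cluster of the same chromosome.

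**Figure D2:**
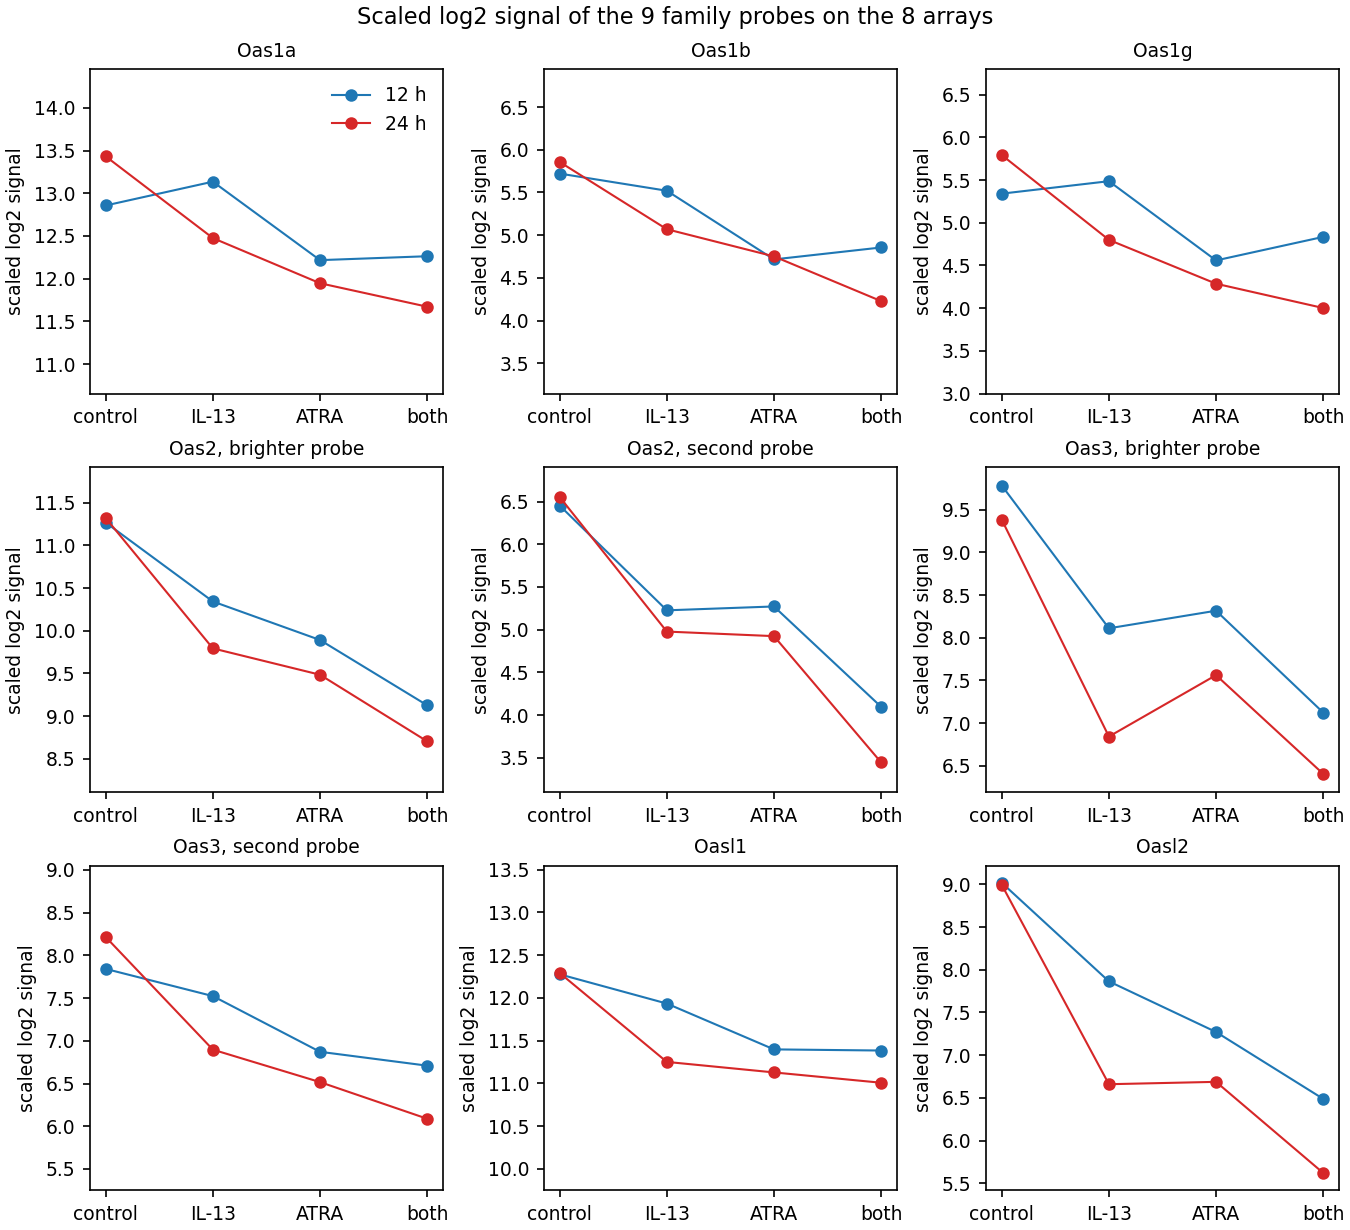
Scaled log2 signal of the 9 probes of the 7 genes on the 8 arrays (1 point per array, y axis placed for each probe), for the 4 treatments at 12 h (blue) and 24 h (red). Control was the highest point of every probe at 24 h and IL-13 with ATRA the lowest, while at 12 h IL-13 was above control for Oas1a and Oas1g.

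Across the family, all 7 genes were lower than control with ATRA and with both agents at each time, and 5 of 7 were lower with IL-13 at both times, against 35.9%, 37.1% and 34.2% of all genes tested. At 24 h control was the highest and IL-13 with ATRA the lowest of the 4 treatments in 7 of 7 genes (26.4% and 26.2% of all genes tested). At 12 h this held for control in 5 genes (30.5%) and for the combined treatment in 4 (23.4%). Control was highest and the combined treatment lowest at both times in Oas2, Oas3, Oasl1 and Oasl2, against 5.79% of all genes, while the places of IL-13 and ATRA between them differed among these 4. The members were selected for this pattern, so the counts describe them and nothing is read from the contrast.

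With IL-13 the median difference of the 7 genes was -0.69, ranging from -2.10 (Oas3, brighter probe) to -0.34 (Oas1a), beside a median of -0.00 over all genes tested. At least 2-fold lower at both times were Oas3 and Oasl2 (1.59% of all genes). For Oas3 this held on the brighter probe only, as the second gave -0.32 at 12 h. The second Oas2 probe gave -1.23 at 12 h and -1.58 at 24 h. With ATRA the range was narrower, from -2.03 (Oasl2) to -1.02 (Oasl1), with a median of -1.14 beside -0.02 over all genes. Oas1b, Oas2, Oas3 and Oasl2 were at least 2-fold lower at both times (1.55%), though the second Oas3 probe gave -0.97 at 12 h. At 24 h all 7 were at least 2-fold lower with ATRA (3.51%).

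With both agents the median difference from control was -1.25, from -2.95 (Oasl2) to -1.09 (Oasl1), beside -0.03 over all genes. At least 2-fold lower at 24 h were 7 of 7 (5.89%), and at both times Oas2, Oas3 and Oasl2 (2.93%). Against IL-13 alone the median was -0.75 and all 7 were lower at both times (34.6% of all genes). Against ATRA alone the median was -0.19. The ATRA-with-IL-13 comparisons share the same 2 arrays, as those against control share the control arrays.

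Because these contrasts chose the members, their counts past limma's adjusted p of 0.05 are given only as a description, and nothing is read from them. They were 2 of 7 with IL-13 (Oas2 and Oas3; 0.595% of all genes tested were called lower), 3 with ATRA (Oas2, Oas3 and Oasl2; 0.958%), 5 with both agents (all but Oas1a and Oas1g; 5.47%) and 1 with both against IL-13 (Oas2; 1.48%), and against ATRA 0.0971% of all genes were called lower. The counts depended on single arrays and on the filter. Without any 1 of the 8 arrays, members called with both agents numbered 1 to 5, with the lowest count without the 24 h control array. Of these calls Oas2 held in 8 of 8 such fits, Oas3 in 7, Oasl2 in 6, Oasl1 in 2 and Oas1b in 1. The IL-13 calls came to 0 or 1, those of ATRA to 0 to 2 and that of both against IL-13 to 0 in such fits, and with no filter on dim probes, which raises the genes tested to 27343, no member was called in any comparison (limma, adjusted; 1, 0 and 36 of all genes called with IL-13, ATRA and both). Without the 24 h control array the IL-13 difference of Oas1a became 0.20 and that of Oas1g 0.10, and without the 24 h array of both agents the difference of both from ATRA became 0.12 for Oas1a, 0.08 for Oas1b and 0.33 for Oas1g.

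**Figure D3:**
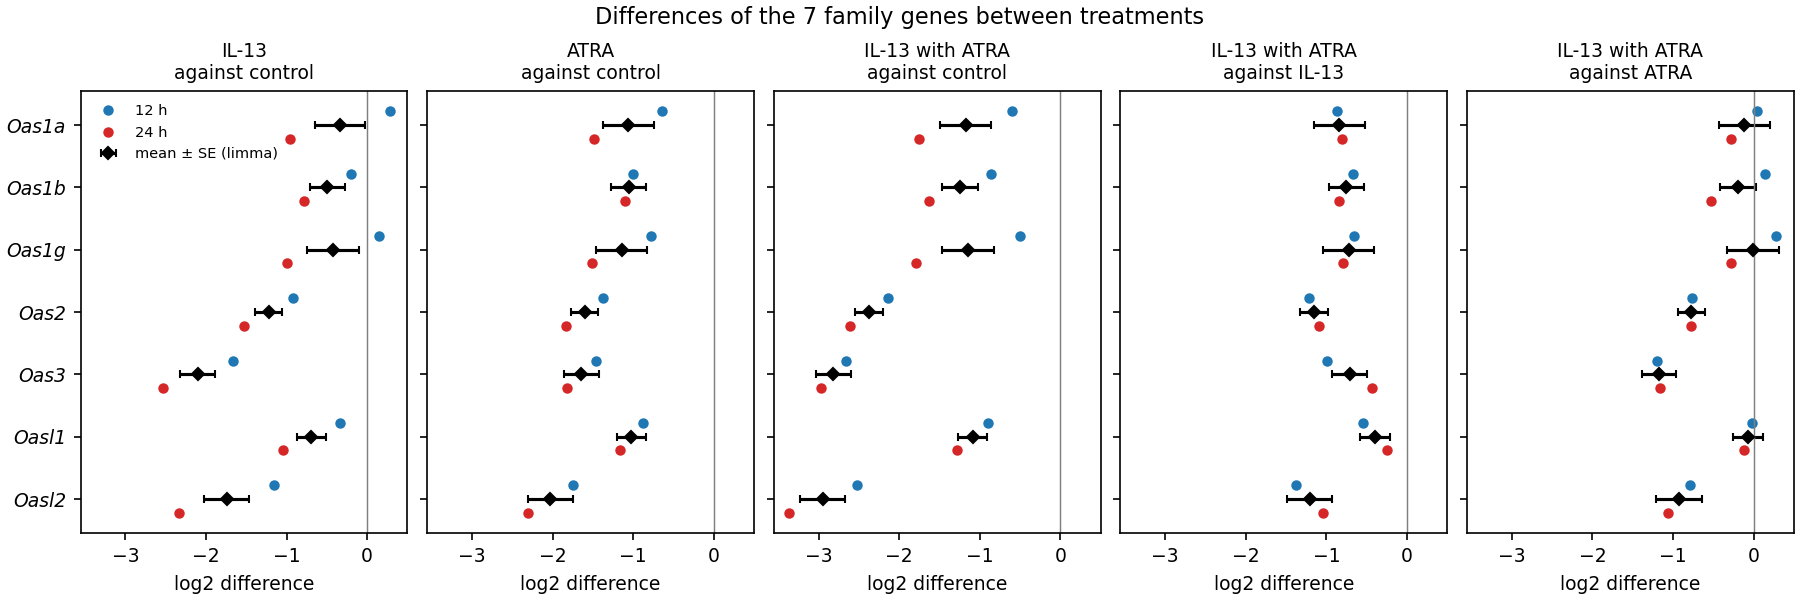
Log2 difference of the 7 genes in 5 comparisons of treatments, with limma's estimate over both times and its standard error in black and the 12 h and 24 h values as blue and red points. Against control the IL-13 values spread from -2.10 (Oas3, brighter probe) to -0.34 (Oas1a) and those of ATRA from -2.03 to -1.02. The 24 h values lie below the 12 h values in the 3 panels against control.

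After scaling, the difference from control was larger at 24 h than at 12 h for 7 of 7 genes with IL-13, with ATRA and with both. Of all genes, 56%, 51% and 53.8% had a lower value at 24 h than at 12 h. The median of the family moved from -0.34 to -1.04 with IL-13, from -1.0 to -1.51 with ATRA and from -0.89 to -1.79 with both. The percentile used for scaling was lowest for IL-13 at 12 h (448) and highest for IL-13 at 24 h (739). Before scaling, the Oas2 signal with IL-13 and in control was 1083 and 2601 at 12 h, and 1221 and 2452 at 24 h. There, as for Oas1b and Oasl1, the IL-13 signal was proportionally nearer to control at 24 h, so the larger fall rests on the scaling. For Oas1a, Oas1g and Oasl2 it was farther from control at 24 h, and for Oas3 about as far at both times. The part of scaling was not tested further. Over all treatments, levels at 24 h differed from those at 12 h by -0.33 in the median, from -0.78 ± 0.15 for Oas3 to -0.23 ± 0.15 for Oas1b. Control did not share this fall: the mean of the 7 genes, each centred on its own mean, was 0.99 at 12 h and 1.11 at 24 h. Control levels of Oas3 and Oasl2 were lower at 24 h (9.38 and 8.99) than at 12 h (9.78 and 9.02).

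For each gene the combined difference was smaller in size than the sum of the IL-13 and ATRA differences on the log2 scale. The departure from that sum ranged from 0.22 ± 0.45 (Oas1a) to 0.93 ± 0.30 (Oas3), with a median of 0.45 beside -0.00 over all genes, and it was above 0 at both times in 6 of 7 genes (27.5% of all genes). At 24 h the sum for Oasl2 was -4.64 and the measured difference -3.37, and for Oas3 -4.36 and -2.98. At 12 h the values lay closer, -2.90 and -2.53 for Oasl2 and -2.30 and -2.14 for Oas2. Oas1b went the other way, with a departure of 0.34 at 12 h and 0.26 at 24 h. The 1 departure below 0 was that of Oas1a at 12 h, where the sum was -0.36 and the combined difference -0.59. Without the 24 h control array the departure was -0.32 for Oas1a and -0.11 for Oas1g and the median 0.20, and without the 12 h control array the median was 0.85. On the second probes the departure was 0.07 ± 0.27 for Oas2 and 0.52 ± 0.38 for Oas3. All 4 treatments enter this value, the same arrays as in the differences above. The members were selected with these responses in view, so nothing is read from the contrast with all genes. The scaling of all 4 arrays of a time enters it too, and the part of scaling was not tested.

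**Figure D4:**
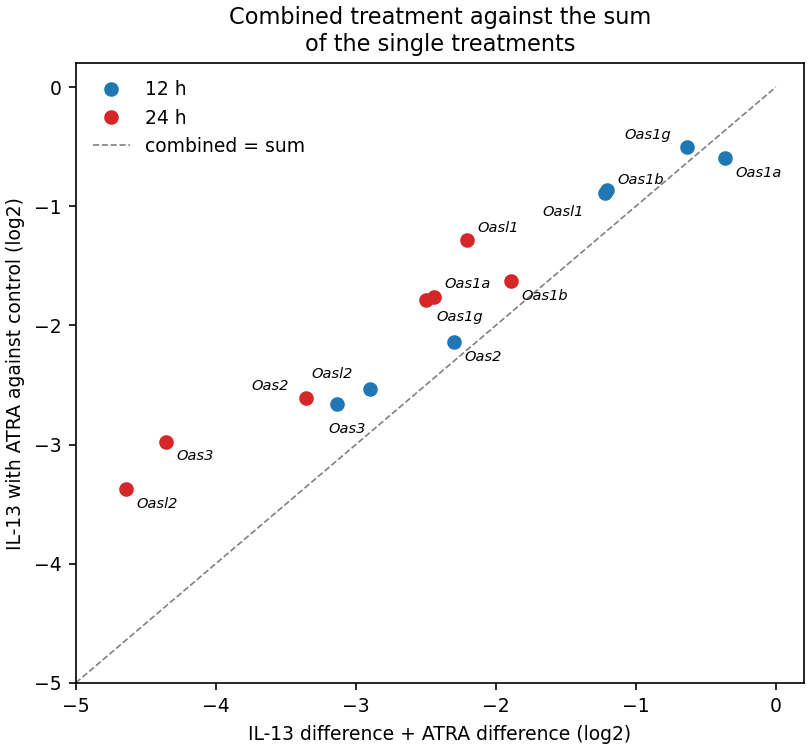
Measured log2 difference with both agents against the sum of the single differences, for 7 genes at 12 h (blue) and 24 h (red), with the dashed line where they are equal. Points above the line are less negative than the sum, which holds for all but Oas1a at 12 h, and the distance is largest for Oas3 and Oasl2 at 24 h.

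Of 11 genes from the interferon receptor to ISGF3, Stat2, the ISGF3 subunit that bears its activation domain, was lower in all 5 treatment comparisons and called in 4. Its log2 level was 9.88, 8.98, 9.12 and 8.25 at 12 h and 9.74, 8.77, 8.99 and 8.18 at 24 h for control, IL-13, ATRA and both. No 2 treatments overlapped, but IL-13 at 12 h (8.98) and ATRA at 24 h (8.99) were nearly equal. It differed from control by -0.93 ± 0.10 with IL-13 (limma, adjusted p = 0.0333), -0.75 ± 0.10 with ATRA (0.0428) and -1.60 ± 0.10 with both (0.00405), and the combined treatment differed from IL-13 by -0.66 ± 0.10 (0.0463) and from ATRA by -0.84 ± 0.10 (0.0672, not called). The call of both against control held in 8 of 8 fits without 1 array, and each of the other Stat2 calls in 0 of 8. With no term for time in the fit, the Stat2 calls of ATRA and of both against IL-13 were also lost. Without the filter on dim probes no gene of this list was called in any comparison. Irf9, the DNA-binding ISGF3 subunit, fell with both agents by 0.98 ± 0.16 (limma, adjusted p = 0.0275), and Usp18, which restrains the interferon receptor, by 1.83 ± 0.34 (0.0368). Each of these held in 1 of 8 fits without 1 array.

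Socs1, a suppressor of JAK kinases, rose with IL-13 by 2.61 ± 0.24 (limma, adjusted p = 0.023) and with both agents by 2.54 ± 0.24 (0.00877). IL-13 added to ATRA raised it by 2.88 ± 0.24 (0.026), and ATRA alone gave -0.35 ± 0.24 (0.59). The 3 Socs1 calls held in 3, 4 and 3 of 8 fits without 1 array. The receptor chains Ifnar1 and Ifnar2 differed from control by -0.34 to 0.40 and were not called in any comparison. In the list as a whole 1 gene rose and 1 fell with IL-13, 1 fell with ATRA, and 1 rose and 3 fell with both, where 1.27%, 1.86% and 8.5% of all genes tested were called in either direction.

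Among 6 interferon regulatory factors, Irf7, the factor that amplifies type I interferon, had differences of -1.04 ± 0.42 with IL-13, -1.74 ± 0.42 with ATRA and -1.74 ± 0.42 with both (limma, adjusted p = 0.21, 0.127 and 0.0646). As for the synthetases, its 24 h values (-1.83, -2.45 and -2.53) were lower than its 12 h values (-0.25, -1.04 and -0.95). Irf1 had 0.64 ± 0.17 with ATRA (0.162), and Irf8, a macrophage lineage factor, was the 1 called gene, with a difference of 0.90 ± 0.14 between the combined treatment and IL-13 (limma, adjusted p = 0.0444, a call lost without any 1 array). Interferon beta (Ifnb1) was well above background on 2 control arrays and 1 IL-13 array and on 0 of the 4 arrays with ATRA. Its mean over both times was at least 1.69-fold higher in control than in ATRA cells and at least 1.54-fold higher than with both agents. Neither figure is a bound at a single time or allows for spread between arrays. Control and ATRA levels were 4.07 and 1.68 at 12 h, and 3.68 and 3.01 at 24 h. These bounds set the control mean against, per array, the higher of the probe's own signal and the dimmest signal of any probe well above background. Ifnb1 was not called by limma (adjusted p = 0.327 and 0.106). Whether interferon in the cultures had a part in the levels of the synthetases was not tested.

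The other sensors of double-stranded RNA and the other interferon-stimulated effectors were lower than control in most cases, 8 of 8 sensors with IL-13, 7 with ATRA and 8 with both, and 19, 18 and 19 of 19 effectors. These counts go by the sign of the estimate over both times, whose median over all genes tested was -0.00, -0.02 and -0.03. Of the sensors, 5 passed limma's adjusted threshold with both agents, 1 with ATRA and 0 with IL-13 (6 lower at an unadjusted p under 0.05), where 5.47%, 0.958% and 0.595% of all genes were called lower and 13.7% were lower with IL-13 at an unadjusted p under 0.05. Eif2ak2, which encodes the RNA-activated kinase PKR, fell by 0.90 ± 0.13 with ATRA (limma, adjusted p = 0.0464), and Zbp1, a sensor of Z-form nucleic acid, by 2.21 ± 0.28 with both (0.0158), calls that held in 0 and 5 of 8 fits without 1 array. The median of the sensors was -0.56 with IL-13, -0.91 with ATRA and -1.07 with both. Of 19 effectors tested, 0 were called by limma with IL-13 (10 lower at an unadjusted p under 0.05), 4 fell with ATRA (Gbp3, Ifit1, Ifit3 and Mx2) and 13 fell with both, beside the same shares of all genes, and their medians were -0.92, -1.49 and -2.04. Ifit3, which binds foreign RNA together with Ifit1, differed from control by -1.97 ± 0.23 with ATRA (limma, adjusted p = 0.0305) and by -2.75 ± 0.23 with both (0.00657), and both agents differed from IL-13 by -1.63 ± 0.23 (0.0358). These Ifit3 calls held in 1, 8 and 0 of 8 fits without 1 array, and the ATRA calls of Gbp3, Ifit1 and Mx2 in 0, 1 and 0. Ifi44 differed by -2.82 ± 0.36 with both (limma, adjusted p = 0.0154), and the guanylate-binding protein gene Gbp2 by -2.83 ± 0.47 (0.0289), but Gbp2 was well above background on only 1 of the 2 arrays with both agents, so its size is uncertain. Isg15, the ubiquitin-like modifier, had -2.28 ± 0.46 (0.0458). The Gbp2 call held in 2 and the Isg15 call in 1 of 8 fits without 1 array. Over the fits without 1 array the count for both agents was 2 to 12 effectors and 0 to 5 sensors, and without the filter it was 0 of each.

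**Figure D5:**
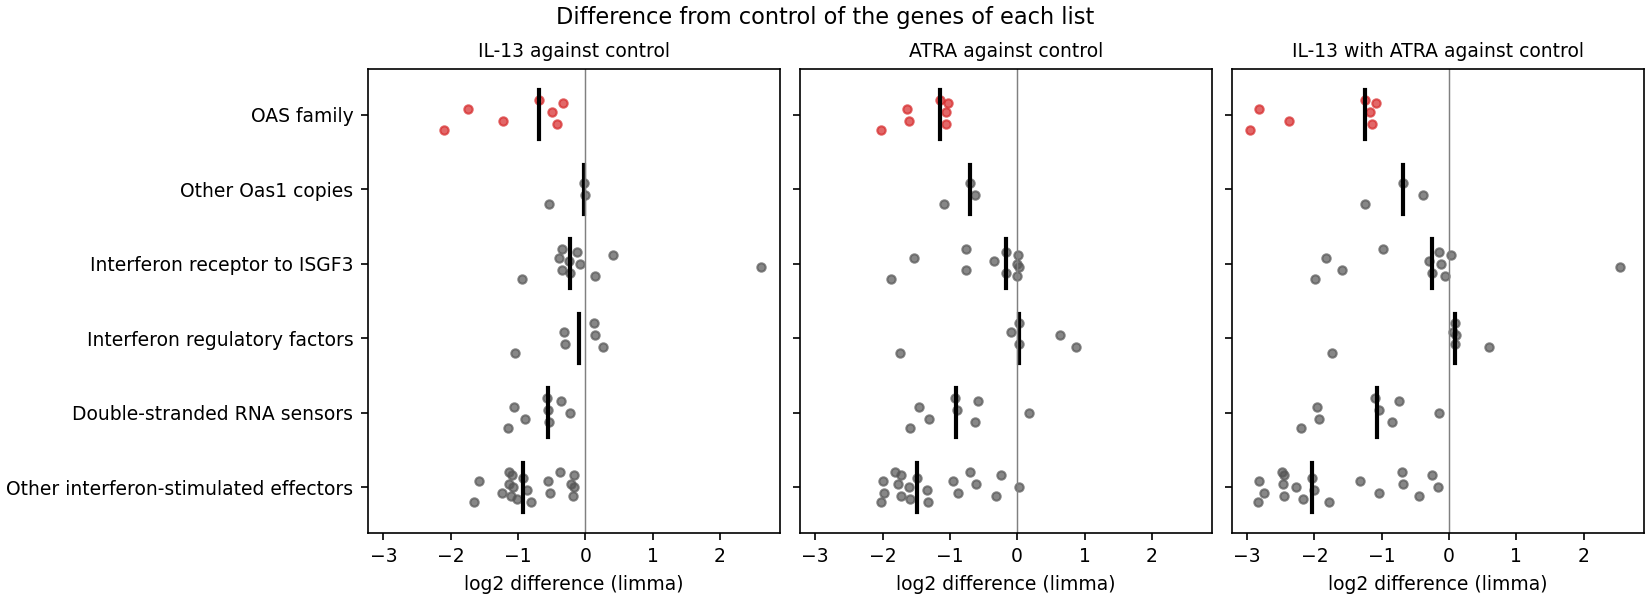
Log2 differences from control of the genes of each list, 1 point per gene (the synthetases in red), for IL-13, ATRA and both agents, with the median of each list as a black bar. The synthetase family, the sensors and the effectors have medians below 0 in each panel.

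The genes whose levels ran most like the family over the 8 arrays were sought among 2438 genes with a standard deviation of at least 0.5 over the arrays, by Pearson correlation with the mean centred profile of the 7 genes. The 10 highest were Zbp1 (r = 0.992), Xaf1, Gbp5, Gpat3, Ddx58, Sp100, Rtp4, Ifit3, Mx2 and Cmpk2 (r = 0.980), and 98 genes had r above 0.9. The points are 8 arrays that share the treatments, the slides and the scaling, so r is a description with no p. Zbp1 differed from control by -1.07 with IL-13, -1.46 with ATRA and -2.21 with both. Gpat3, an enzyme of glycerolipid synthesis, was on none of the lists and differed by -0.79, -1.07 and -1.35. Within the family the r of a gene with the mean of the others ranged from 0.898 (Oas3) to 0.991 (Oasl2), and among pairs from 0.736 (Oas1a with Oas3) to 0.989 (Oas1a with Oas1g).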

How the data were processed

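RNA of 8 RAW264.7 cultures (4 treatments, 12 h and 24 h) was read on 1-colour Agilent arrays (design 014868), labelled with a low-input amplification kit per the labels' protocols. Per the file headers, Feature Extraction 10.7.1.1 made the deposited spot intensities, corrected for spatial and multiplicative trends as processed signals, with 0/1 flags for outliers, saturation and signal above background. The authors' deposited log2 value table, whose scaling is not given in the sources used here, served as an alternative. Processed signals without control and outlier spots were averaged per probe and scaled to each array's 75th percentile over spots. Genes were named through RefSeq accessions (27668 probes), symbols (5589) or synonyms (471), or kept the file's name (7446). A probe was kept if some treatment had it well above background at both times, and the brightest kept probe stood for its gene. limma 3.58.1 (R 4.3.3) fitted treatment and time over all 8 arrays to 15455 genes (3 residual degrees of freedom, 2.41 from the prior), with Benjamini-Hochberg adjustment. Of the comparisons, only ATRA against control was tried on simulated data, with noise independent between arrays and no effect of time or slide. Same-time arrays share a slide, which is the pairing used. Replicate numbers come only from accession order (1 for 12 h, 2 for 24 h). Promoters are from RefSeq, read with Python 3.11.15 and Biopython 1.88. The members, lists, named-gene rule (members, a fixed set of interferon genes, and per list and comparison the called gene of largest difference each way, plus the 10 genes most alike) were chosen with earlier results of these data known. Some genes and 1 sequence are not reported here.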

Additional observations from a re-analysis of the deposited data

Results flagged for a closer look

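For 6 values the single array pair at 12 h and that at 24 h had opposite signs, and the difference between times was not tested, since there was 1 array per treatment and time. With IL-13 against control, Oas1a went from 0.28 at 12 h to -0.96 at 24 h, a change of -1.235 on the log2 scale, and Oas1g from 0.15 to -0.99, a change of -1.138. With both agents against ATRA, the changes were -0.3205 for Oas1a (0.05 to -0.27), -0.6631 for Oas1b (0.14 to -0.52) and -0.5599 for Oas1g (0.28 to -0.28). The departure of the combined treatment from the sum of the single ones changed by 0.9146 for Oas1a (-0.23 to 0.68). All 6 values belong to the Oas1 copies, and the 12 h values among them are below 0.35 in size. Slide changes with time in each of them, and its part was not tested. For Oas1a and Oas1g the 12 h signal with IL-13 was below control before scaling, so the 12 h sign of that comparison rests on the scaling.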

How the results depend on the processing

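Of the 7 members' values, the sign of every IL-13, ATRA and combined difference from control was kept in the fits with all arrays, and 4 of 56 values of both agents against ATRA turned, all near 0 (Oas1g 0.09 with quantile normalization, 0.09 with the authors' deposited values and 0.17 with normexp background correction, Oas1b 0.05 with normexp). Without a filter on dim probes the members called were 0 with IL-13, 0 with ATRA, 0 with both against control and 0 with both against IL-13, at 27343 genes tested, so adjustment over more genes is part of the setting. Without the time term (no replicate block for the 12 h and 24 h arrays) they were 0 with IL-13, 1 with ATRA and 0 with both against IL-13, and 4 in place of 5 with both against control. The mean over the probes of a gene left 1 with IL-13, and limma's trend and robust settings gave 2 with both against IL-13 and 1 with both against ATRA. The median of both against IL-13 was -0.39 with normexp in place of -0.75, and the cause was not tested. Leaving out 1 array at a time gave 0 to 1 members called with IL-13, 0 to 2 with ATRA, 1 to 5 with both against control, 0 with both against IL-13 and 0 with both against ATRA. The medians then ranged from -0.95 to -0.46 with IL-13, -1.67 to -0.81 with ATRA, -1.72 to -1.01 with both, -1.06 to -0.56 with both against IL-13, -0.46 to -0.03 with both against ATRA and 0.20 to 0.85 for the departure from additivity. The extremes of the IL-13 median came without the 12 h control array (-0.95) and without the 24 h IL-13 array (-0.46), and those of both against ATRA without the 12 h and the 24 h array of both agents. Where this left 1 array in a treatment, that array was assumed to vary like the others. Over all genes, calls with both against control numbered 1314, and 129 without the 24 h control array, 2032 with trend and robust settings. The 3 residual degrees of freedom and 1 array per treatment and time limit every call.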
